A study of Mus musculus with 8 samples.

Results

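The genes examined were 9 members of the *Bcl2* family in P5424 cells, a mouse line with features of T cell precursors that was derived, as background, from a thymic lymphoma of a mouse deficient in *Rag1* and p53. The 9 genes, of 21900 protein-coding genes, were chosen by name: the survival genes *Bcl2*, *Bcl2l1* and *Mcl1*, the effectors *Bax* and *Bak1*, and the BH3-only genes *Bcl2l11*, *Bid*, *Bbc3* and *Pmaip1*. A gene's window was its body on GRCm38 with 20 kb to either side, and its start window reached 1 kb to either side of a start listed by RefSeq. The study deleted IkE120, an enhancer of *Ikzf1*, with CRISPR/Cas9, and mapped acetylation of histone H3 lysine 27 (H3K27ac), a mark of active promoters and enhancers, by ChIP-seq. The 2 libraries used here were 1 of wild-type (wt) cells and 1 of ΔIkE120 cells, which are 1 clone with the deletion on all alleles. Whether these cells had been stimulated with PMA and ionomycin is not stated for the ChIP-seq. With 1 library per genotype there were no replicates, so differences between the lists carry no error and no test, and a difference between clones cannot be told apart from an effect of the deletion.

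As background, proteins of the Bcl2 family decide whether the outer membrane of mitochondria stays intact. Survival members hold the effectors in check, the effectors open the membrane and release cytochrome c, and BH3-only proteins, made or activated in response to stress, free or activate the effectors. In developing T cells this balance sets how long a thymocyte lives and whether it dies after a failed or self-reactive receptor rearrangement.

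The data were lists of broad peaks called by the authors in each library. The wt list held 34553 peaks over 25189952 bases, and the ΔIkE120 list held 29902 peaks over 22143580 bases. The ΔIkE120 list was therefore the shorter one genome-wide, and 86.4% of its peaks overlapped a wt peak, against 74.4% of wt peaks overlapped by a ΔIkE120 peak. The depth of the libraries is unknown from these lists. Bases covered by peaks describe the extent of what was called and not the height of the signal. The -log10 q of a peak grows with depth, so its values are printed for each list as a description. Between the lists it should be compared by rank, and values printed without a rank carry no such comparison.

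Markers of T cell precursors, which P5424 cells roughly resemble according to the paper, carried the mark. All 11 T cell precursor genes examined, among them *Cd3e*, *Lck*, *Tcf7*, *Gata3*, *Ptcra* and *Rag1*, had a peak in the start window in both lists. By -log10 q the start peak ranked lower in ΔIkE120 for 6 of the 11 and higher for 5. Among the 6 were the linked genes *Cd3e*, *Cd3g* and *Cd3d*, at percentiles 64.9, 47.5 and 28.6 of start peaks in ΔIkE120 against 91.2, 81.1 and 48.1 in wt, although *Cd3e* and *Cd3d* had more covered bases there (ratios 1.21 and 1.07). The 5 others included *Lck*, at 53.8 in wt and 60.5 in ΔIkE120, and *Rag1*, at 5.32 and 12.4. *Rag1* is counted here although the line came from a mouse deficient in it, so its peak does not stand for a working gene. Of 4 B cell genes only *Ebf1* had a start peak, with a -log10 q of 2.74 (wt) and 2.28 (ΔIkE120), near the bottom of all start peaks. Neither the fibroblast genes *Col1a1* and *Col3a1* nor the liver gene *Alb* had one. The myeloid gene *Mpo* had a start peak in wt, at percentile 1.43, and the ES cell gene *Pou5f1* had one in both lists, at 1.28 and 2.51. The erythroid gene *Klf1* also had one in both lists, at percentiles 17.6 and 12.5, no lower than those of *Rag1* and above those of *Ptcra* (6.89 and 7.23). The other markers of these cell types with a start had none.

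Of the 9 family members, 8 had a peak in the start window in wt and the same 8 had one in ΔIkE120. Over the 21141 protein-coding genes with a start, 46.7% had a start peak in wt and 46.2% in ΔIkE120. No member had a start peak in 1 list only, which was also rare among all genes, at 1.05% for wt only and 0.506% for ΔIkE120 only. *Pmaip1* was the member without any peak. The count depended on which start was taken: at the outermost RefSeq gene end, a choice tried after the data were seen, 5 members had a start peak in each list. *Bcl2l1*, *Mcl1* and *Bbc3* had none at that position, so the ranks of their start peaks rest on the start used here. The shares of all genes above are for the start used here, and none is given for the outermost gene end.

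Across the 9 windows the wt list held 54 peaks over 39756 bases, and the ΔIkE120 list 47 peaks over 36747 bases. The ratio of covered bases, ΔIkE120 to wt, was 0.924, beside 0.909 for the summed bases of the 14696 protein-coding genes with a peak in their window. The median ratio was 0.959 over the 8 members with peaks and 0.932 over those 14696 genes, whose quartiles were 0.804 and 1.04. The ratio was below 1 for 7 of the 8 members with peaks and for 66.6% of all genes, and *Bcl2l1*, *Mcl1* and *Bid* were above 1 under some of the alternative settings. *Bcl2* was the 1 member whose coverage was lower in ΔIkE120 by 1.5 fold or more, as it was for 12.3% of all genes and 8.97% of those with at least 1000 covered bases in wt. None was higher by as much, against 3.32% and 0.535%. The limit of 1000 bases was set on wt alone, which left out genes with fewer in wt, however many they had in ΔIkE120.

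**Figure D1:**
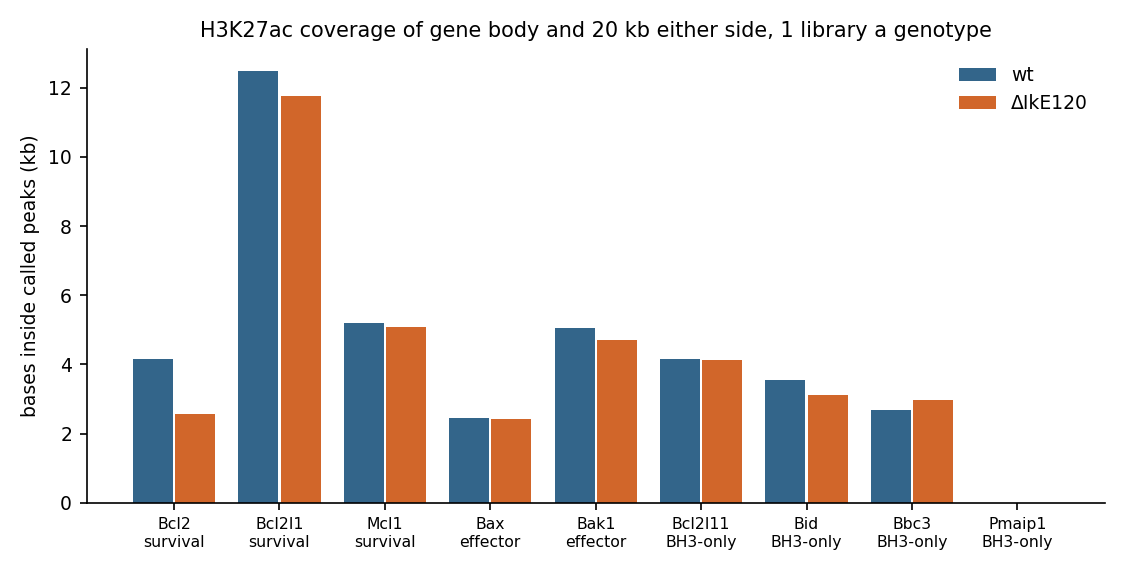
Bars give the bases (in kb, from 0) inside called H3K27ac peaks in each gene's window in the wt and the ΔIkE120 library, 1 library each, so there are no error bars. *Bcl2l1* had the most covered bases in both lists, *Bcl2* had 4155 bases in wt and 2574 in ΔIkE120, and *Pmaip1* had none.

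*Bcl2*, which encodes the founding survival protein, had 6 peaks over 4155 bases in wt and 3 peaks over 2574 bases in ΔIkE120 (log2 ratio -0.69). This ratio stood at percentile 10.1 of all genes with a peak. The start peak was present in both lists, at chr1:106713864-106714832 in wt and chr1:106713727-106714879 in ΔIkE120, and was longer in ΔIkE120, 1153 against 969 bases. Its -log10 q of 12.2 (wt) and 13.3 (ΔIkE120) gave percentiles 48.2 and 52.7 of the start peaks of all genes in the respective list. The lower coverage thus lay outside the start peak. The 3 wt peaks with no counterpart in ΔIkE120 all lay inside the gene, 18.5, 148 and 172 kb downstream of the start, with a -log10 q of 1.70, 1.39 and 2.66, against a median of 4.12 for the wt list. They held 767 of the 1765 bases at *Bcl2* that were called in wt only. Another peak inside the gene, 165 kb downstream, measured 930 bases in wt and 292 in ΔIkE120, with a -log10 q of 2.00 and 3.51. The peak with the highest -log10 q inside the gene beyond the start, 26.2 kb downstream of the start, was called in both lists, with lengths of 1489 and 1129 bases. When each list was limited to its stronger peaks, those whose -log10 q was no lower than the list's median of 4.12 (wt) or 4.47 (ΔIkE120), the log2 ratio was -0.11. It was -0.53 with equal numbers of peaks and -0.43 with flanks of 50 kb, and all 3 values were short of 1.5 fold. Over the gene body alone it was -0.86. Leaving out peaks at other genes' starts could not change the ratio of -0.69, because the window held no such peak.

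*Bcl2l1*, which encodes the survival protein Bcl-xL, had the most covered bases of the 9 members. It held 17 peaks in each list, over 12489 bases in wt and 11749 in ΔIkE120 (log2 ratio -0.09). By covered bases it ranked at percentile 99.8 of all 21900 genes in both lists. The start windows of its 3 RefSeq starts took in a main peak of 1791 bases in wt and 1808 in ΔIkE120, which contained the middle start at position 152830717. By -log10 q, 12.2 (wt) and 12.3 (ΔIkE120), this peak stood at percentiles 48.1 and 46.8 of start peaks. Its fold enrichment was low, 2.60 and 2.73, percentiles 3.59 and 3.89. *Bcl2l1* therefore had the most covered bases of the family, spread over many separate peaks. Its start peak was of middle rank by significance and of low rank by enrichment. Low enrichment was not particular to the start peak. By fold enrichment among all peaks of a list, the main peak stood at percentiles 23.3 (wt) and 26.1 (ΔIkE120). The other peaks in the window stood lower in both lists, apart from the peak 61.3 kb downstream of the nearest start and the neighbour's peak described below. A small peak of 216 bases near the outermost of the 3 starts was called in wt only. The window also took in a neighbour: the peak with the highest -log10 q there, 29.6 in wt and 26.4 in ΔIkE120, lay at the start of *Tpx2*, a spindle assembly factor. In covered bases of the 2 libraries, the protein-coding genes nearest to *Bcl2l1* included *Mtss1* (12481 and 11528 bases) and *Prkcb* (11849 and 11982), at log2 distances of 0.03 and 0.08.

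*Mcl1*, which encodes a short-lived survival protein that thymocytes depend on, had the start peak with the highest -log10 q of the family. The values, 35.8 (wt) and 34.0 (ΔIkE120), were percentiles 99.2 and 98.5 of start peaks. By fold enrichment, 4.45 and 4.41 (percentiles 62.7 and 55.3), it came after the start peak of *Bcl2*, with 5.10 and 5.19 (percentiles 83.7 and 81.9). The window held 5 peaks over 5208 bases in wt and 6 over 5091 in ΔIkE120 (log2 ratio -0.03). Covered bases filled 11.3% of the *Mcl1* window in wt, slightly more than the 10.9% of the longer *Bcl2l1* window, and 1.92% of the *Bcl2* window, with the same order in ΔIkE120. The additional peak in ΔIkE120 came from a stretch about 16 kb downstream that was called as 1 peak of 1332 bases in wt and as 2 peaks of 275 and 563 bases in ΔIkE120. The 3 survival genes thus shared a start peak in both lists and differed in how far the mark reached beyond it.

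Among the effectors, *Bax* had 2 peaks in each list, over 2454 bases in wt and 2423 in ΔIkE120. The start peak's -log10 q, 4.47 (wt) and 6.83 (ΔIkE120), gave percentiles 8.05 and 17.4, the lowest by this value among the 8 members with a start peak. The other peak lay at the start of *Ftl1*, the ferritin light chain gene. The edge of the *Bax* start peak differed between the lists. In wt the peak reached from 45466061 to 45467120 and contained the start at 45466898, while in ΔIkE120 it ended at 45466847, 51 bases inside the gene. *Bak1* had 6 peaks in each list, over 5046 bases in wt and 4698 in ΔIkE120 (log2 ratio -0.10). Its start peak, with a -log10 q of 11.8 and 13.4, percentiles 46.2 and 53.4, was within 1 kb of a start of the neighbouring *Ggnbp1* as well, and a further peak in the window lay at another start of *Ggnbp1*. The effectors together covered 7500 bases in wt and 7121 in ΔIkE120 (ratio 0.949).

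*Bcl2l11* encodes Bim, a BH3-only protein needed for the removal of self-reactive thymocytes. It had 4 peaks over 4169 bases in wt and 3 over 4119 in ΔIkE120 (log2 ratio -0.02). The strongest start peak reached 7.35 (wt) and 9.24 (ΔIkE120), percentiles 20.6 and 29.9. At its 2 RefSeq starts the called peaks broke up. In wt, peaks ran from 128125468 to 128125831, from 128126041 to 128127428 and from 128127605 to 128128146, and the starts at 128126038 and 128127575 both fell into the gaps, 3 and 30 bases from an edge. In ΔIkE120 the gap at the upstream start lay from 128125925 to 128126117, and the downstream start was inside 1 merged peak of 2114 bases. Both lists thus had a gap over the upstream start, and the wt list alone had one over the downstream start. With the stronger peaks only, the log2 ratio of *Bcl2l11* was -0.98. All 4 wt peaks were then kept, while the ΔIkE120 peaks with a -log10 q of 4.09 and 3.73, the latter inside the gene, fell below the median of their list.

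*Bid* encodes a BH3-only protein that caspase-8 cleaves, which links death receptors to mitochondria. Its window held 8 peaks over 3551 bases in wt and 4 over 3117 in ΔIkE120 (log2 ratio -0.19). The start peak was longer in ΔIkE120, 1234 against 770 bases, and had a -log10 q of 15.2 (wt) and 13.7 (ΔIkE120), percentiles 63.9 and 54.6. The other wt peaks were a weak one inside the gene and 6 in a cluster 13.3 to 18.1 kb upstream of the start, where the ΔIkE120 list had 3. Longer at its start and shorter upstream, *Bid* changed sign with the setting: its log2 ratio was 0.65 with the stronger peaks only and 0.10 over the gene body alone.

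*Bbc3* encodes Puma, a BH3-only protein known as a target of p53. It had 6 peaks in each list, over 2684 bases in wt and 2976 in ΔIkE120 (log2 ratio 0.15), and was the 1 member with more covered bases in ΔIkE120. The rank of its start peak moved the other way. In wt the peak at chr7:16309595-16310118 had a -log10 q of 18.0 and a fold enrichment of 4.43, and in ΔIkE120 the peak at chr7:16309622-16310080 had 8.32 and 3.58. The -log10 q stood at percentile 76.4 of start peaks in wt and 25.2 in ΔIkE120, a shift of -51.3 points. Of the 9658 genes with a start peak in both lists, 11 had a shift this low or lower, counting *Bbc3*, and the quartiles over all of them were -7.91 and 6.83. The other members with start peaks shifted by -9.28 to 9.32 points. *Bbc3* was singled out after these values had been seen. The size of the shift depended on the ranking, with both other rankings chosen after the data were seen. By fold enrichment it was -40.7 points, and 120 of the 9658 genes were as low or lower. Among all peaks of a list the start peak went from percentile 93.2 to 70.5 by -log10 q, a shift of -22.7 points. The peak 14.3 kb upstream of the start went from a -log10 q of 23.5 to 9.11, percentiles 97.3 and 73.2 of all peaks in a list, while the peak 3.4 kb downstream went from 15.7 to 12.2, percentiles 90.2 and 81.4. These 3 peaks ranked lower in ΔIkE120 by -log10 q, with their positions kept. Counted from the top of each list, which does not depend on how many weaker peaks it holds, the start peak was number 2358 in wt and 8818 in ΔIkE120, the upstream peak 949 and 8031, and the downstream peak 3386 and 5572. Of the 3 weaker peaks in the window, the 2 upstream ones also stood lower in ΔIkE120 (14948 and 28991, 19220 and 20692), and the 1 that lay 15.7 kb downstream stood higher (19986 and 17475). By percentile among all peaks of a list, that downstream peak was at 42.2 in wt and 41.6 in ΔIkE120, so its direction depended on the measure.

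*Pmaip1*, which encodes the BH3-only protein Noxa, had 0 peaks in its window in either list. Chromosome 18 held 947 peaks in wt and 808 in ΔIkE120, so the chromosome as such was represented. The nearest listed peak before the gene was 456 kb away in both lists, at the start of *Lman1*, and the nearest after it was 501 kb away in wt and 331 kb in ΔIkE120. *Pmaip1* was thus the family member farthest from any listed peak.

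**Figure D2:**
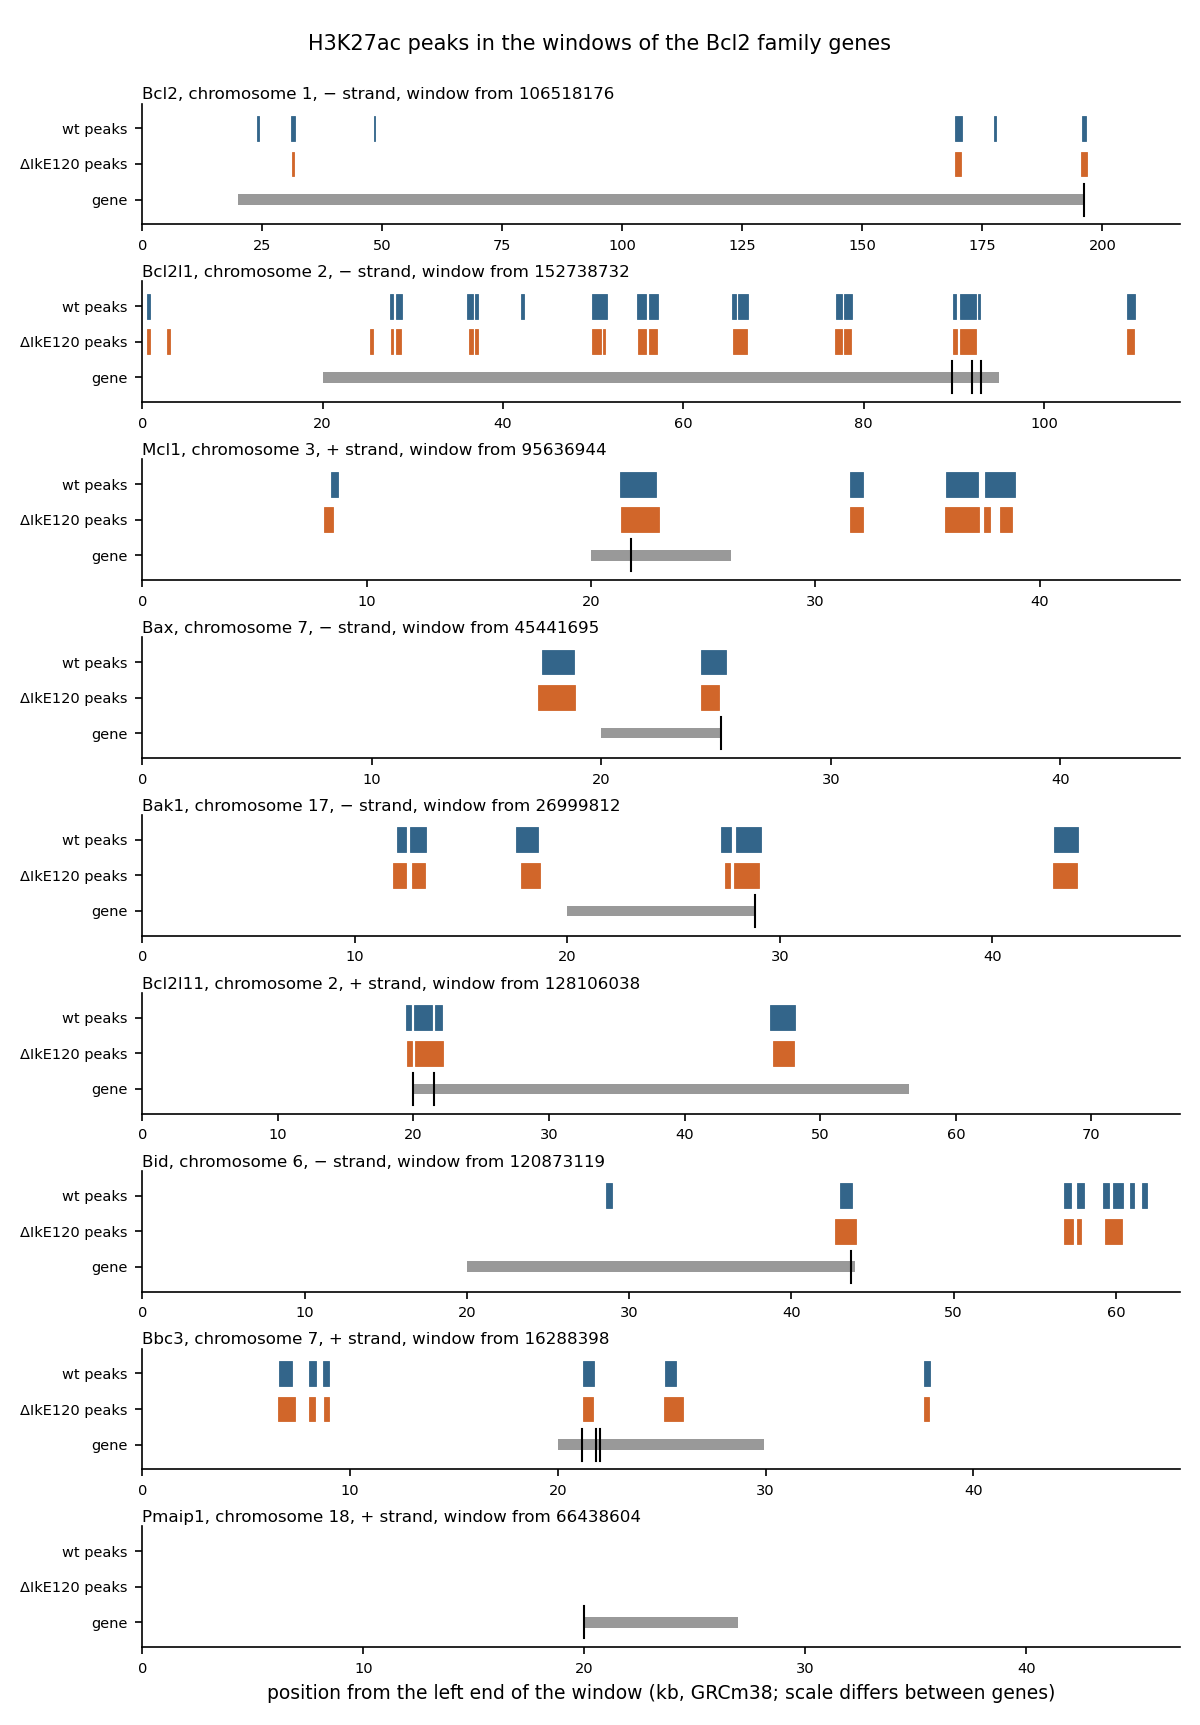
Each panel maps 1 gene's window on GRCm38 (position in kb from the left end, with a scale of its own). Called peaks of the wt list are drawn above those of the ΔIkE120 list, the grey bar is the gene body and black ticks are RefSeq starts. The 8 genes other than *Pmaip1* each had a peak at a start in both lists, and the peaks without a counterpart in the other list lay in the windows of *Bcl2*, *Bid* and *Bcl2l1*, where 1 of them was at a start.

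**Figure D3:**
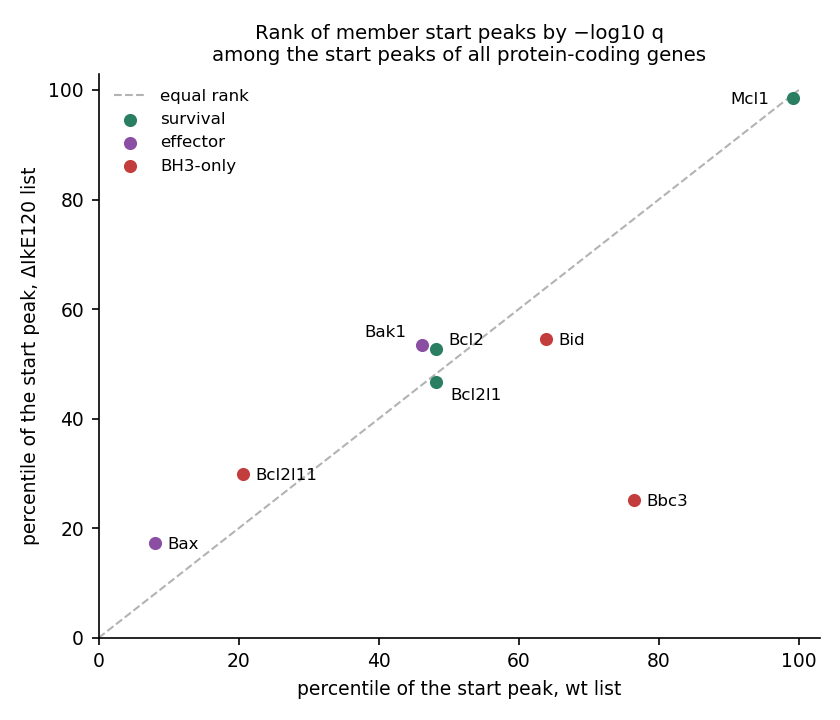
Each point is 1 member's start peak, placed by its percentile by -log10 q among the start peaks of all protein-coding genes in wt (horizontal axis) and in ΔIkE120 (vertical axis), and the dashed line marks equal ranks. *Mcl1* was at the top in both lists, *Bax* at the bottom, and *Bbc3* lay far below the line, at 76.4 in wt and 25.2 in ΔIkE120.

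Survival and death genes were then set side by side. The survival genes covered 21852 bases in wt and 19414 in ΔIkE120 (ratio 0.888), with a median over the 3 genes of 0.941. The 6 death genes covered 17904 bases in wt and 17333 in ΔIkE120 (ratio 0.968), with a median of 0.987 over the 5 with peaks. Over all genes with a peak, the ratio of summed bases was 0.909 and the median 0.932. *Bcl2* set most of the gap between the groups, since *Bcl2l1* and *Mcl1* alone gave 0.952, still below the death genes. The survival genes had the lower ratio in 4 of 5 alternative settings, with the widest gap over the gene bodies alone (0.840 against 1.02). With the stronger peaks only the order turned, to 1.04 for the survival genes and 0.866 for the death genes. The order of the 2 groups thus depended on which peaks were taken, and the difference carries no error.

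Most member peaks were shared. Of the 54 wt peaks, 46 (85.2%, exact 95% interval 72.9 to 93.4) overlapped a ΔIkE120 peak by at least 1 base. Of the 47 ΔIkE120 peaks, 45 (95.7%, 85.5 to 99.5) overlapped a wt peak. These intervals cover counting error only and treat the peaks as independent, although many share a window. Both shares were above those of all peaks, 74.4% and 86.4%, but both intervals contained the share of the whole list. The 8 wt peaks without a counterpart had a median -log10 q of 2.19, and the 2 ΔIkE120 peaks 1.34, against 6.07 and 4.70 for the shared ones. Over the whole lists peaks without a counterpart were also the weaker ones, with medians of 2.15 and 2.04 against 5.80 and 5.39 for shared ones. Most bases called in 1 list only belonged to shared peaks of unequal extent: peaks without a counterpart held 2262 of the 7617 bases called in wt only and 704 of the 4608 called in ΔIkE120 only. All 21 peaks at death genes in ΔIkE120 were shared, and the 2 that were not lay at *Bcl2l1*.

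The wider pathway was described by 45 other genes. In each list 36 of them had a start peak, and 35 had one in both. *Bcl2a1d*, a survival homologue, had one in wt only, with a -log10 q of 2.35, and *Bcl2l2*, which encodes the survival protein Bcl-w, had one in ΔIkE120 only, with 2.81. All 13 genes of the mitochondrial pathway and caspases and all 9 regulators of the family had a start peak in both lists. Of 9 genes of the death receptor pathway, which take in receptors, a ligand and their signalling partners, 7 did. Of the 14 other family genes 6 did. In each list 7 of the 14 other family genes had one, beside the 46.7% and 46.2% of all genes given above. Among the 37 genes with at least 1000 covered bases in wt, the median ratio was 0.924, beside 0.930 over all genes with as many. Of the 37, 4 were lower in ΔIkE120 by 1.5 fold or more and 0 were higher by as much, beside 8.97% and 0.535% of all such genes. The limit was set on wt alone, so genes with fewer bases in wt were left out, however many they had in ΔIkE120. The lowest ratios were those of *Bcl2l14* (1514 bases in wt, 742 in ΔIkE120, ratio 0.490), *Fasl*, the ligand of the death receptor Fas (1170 and 648, 0.554), and *Bmf*, a BH3-only gene (4159 and 2473, 0.595). *Bcl2l14* and *Fasl* had fewer than 1000 covered bases in ΔIkE120 and passed the limit through wt only. Among the highest were those of the initiator caspase gene *Casp9* (1897 and 2471, 1.30) and the mitochondrial protease gene *Htra2* (2648 and 2883, 1.09).

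The promoters of the members were compared in sequence. RefSeq promoter windows of GRCm38.p6, 250 bases before to 50 after a start, were listed for 8 members with 13 starts, and matched 17492 protein-coding genes with 21263 windows in all. The GC content of the 13 windows ranged from 49.3% to 78.0% with a median of 65.7%, against 56.3% over all windows. They held from 1 to 44 CpG dinucleotides with a median of 27, against 13 over all windows. By the median, member promoters thus lay on the CpG-rich side, but 1 *Bcl2l1* window (1 CpG) and the *Bak1* window (11) held fewer than 13. All 8 members had a start peak, while the windows they were compared with were not limited to genes with one. Several windows of 1 gene also overlap or lie close together. Motifs were searched on both strands, and a match is only a match of letters. GGGCGG was found in 9 of the 13 windows and in 46.2% of all windows, CCAAT in 3 and 38.2%, and CANNTG in 8 and 69.0%. GGAA was found in 12 of the 13 and in 95.7% of all windows. TATAAA, present in 12.6% of all windows, and TGACTCA, present in 4.66%, were in none of the 13.

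The *Bcl2* promoter is shown because it lay wholly inside the start peak of both lists and held 44 CpGs, the most of the family, at percentile 97.5 of all windows. It is given 5′ to 3′ on the minus strand at chr1:106714241-106714540, with the 7 matches to GGGCGG on either strand in capitals.
Bcl2 start 1: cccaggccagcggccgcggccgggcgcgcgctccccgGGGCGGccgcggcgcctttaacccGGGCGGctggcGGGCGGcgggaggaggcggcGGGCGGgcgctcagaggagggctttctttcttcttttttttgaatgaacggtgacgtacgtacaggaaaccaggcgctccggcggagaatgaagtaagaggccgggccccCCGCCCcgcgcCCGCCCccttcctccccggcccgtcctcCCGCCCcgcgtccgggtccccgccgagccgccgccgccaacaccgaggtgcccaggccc

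Both *Bcl2l11* promoters are shown because the called peaks broke off within them. They lie on the plus strand at chr2:128125788-128126087 and chr2:128127325-128127624, and capitals mark the bases outside every wt peak, 209 and 176 of 300.
Bcl2l11 start 1: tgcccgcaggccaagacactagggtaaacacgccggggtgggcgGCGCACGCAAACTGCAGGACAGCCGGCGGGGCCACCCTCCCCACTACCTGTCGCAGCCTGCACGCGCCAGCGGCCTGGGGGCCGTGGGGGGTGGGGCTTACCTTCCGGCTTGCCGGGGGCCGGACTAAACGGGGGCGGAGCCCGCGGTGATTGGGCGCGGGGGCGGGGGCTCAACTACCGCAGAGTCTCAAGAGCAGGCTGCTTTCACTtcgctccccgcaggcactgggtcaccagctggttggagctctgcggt
Bcl2l11 start 2: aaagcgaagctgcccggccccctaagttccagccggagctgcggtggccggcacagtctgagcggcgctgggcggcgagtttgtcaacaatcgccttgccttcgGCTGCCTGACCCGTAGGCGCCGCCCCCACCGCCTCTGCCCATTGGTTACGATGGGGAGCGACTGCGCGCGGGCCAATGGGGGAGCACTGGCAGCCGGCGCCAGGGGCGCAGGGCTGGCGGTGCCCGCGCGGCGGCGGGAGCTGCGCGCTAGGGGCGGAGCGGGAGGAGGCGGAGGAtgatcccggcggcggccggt
In ΔIkE120 the peaks covered 138 bases of the upstream window, against 91 in wt, and all 300 of the downstream one, against 124. The windows held 3 matches to GGGCGG each, and 1 and 2 matches to CCAAT.

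The promoter at the upstream start of *Bbc3* is shown because the start peak whose rank moved begins at its end. It lies on the plus strand at chr7:16309333-16309632, and capitals mark the 38 bases inside the wt peak, of which 11 were inside the ΔIkE120 peak.
Bbc3 start 1: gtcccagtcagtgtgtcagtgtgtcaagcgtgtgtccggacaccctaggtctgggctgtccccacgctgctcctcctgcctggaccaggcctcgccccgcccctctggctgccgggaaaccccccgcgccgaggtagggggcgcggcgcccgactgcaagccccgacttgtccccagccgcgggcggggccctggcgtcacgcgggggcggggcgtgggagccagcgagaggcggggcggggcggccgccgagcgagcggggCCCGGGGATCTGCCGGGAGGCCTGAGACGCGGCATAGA
With 5 matches to GGGCGG and 34 CpGs it was as rich in GC, at 76.0%, as the *Bcl2* window. The *Bbc3* start itself, at 16309583, lay 12 bases before the wt peak and 39 bases before the ΔIkE120 peak.

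The *Bax* promoter is shown because the edge of the start peak crossed it in only 1 of the lists. It lies on the minus strand at chr7:45466849-45467148, and capitals mark the 272 bases that were inside the wt peak and not inside the ΔIkE120 peak, which covered 0 bases of the window.
Bax start 1: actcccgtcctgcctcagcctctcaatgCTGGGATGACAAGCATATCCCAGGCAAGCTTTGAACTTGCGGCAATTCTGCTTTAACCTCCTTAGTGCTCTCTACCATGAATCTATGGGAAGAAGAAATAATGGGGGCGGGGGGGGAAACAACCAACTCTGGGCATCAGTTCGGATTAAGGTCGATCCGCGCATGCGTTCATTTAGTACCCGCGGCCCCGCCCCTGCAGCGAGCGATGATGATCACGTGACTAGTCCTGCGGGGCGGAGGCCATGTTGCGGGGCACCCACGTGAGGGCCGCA
The window held 3 matches to GGGCGG and 19 CpGs, at percentile 64.1 of all windows, and so was less rich in CpG than those of *Bcl2*, *Bcl2l11* and *Bbc3*.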

How the data were processed

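H3K27ac ChIP-seq peak lists of 1 wt and 1 ΔIkE120 library of P5424 cells were used, grouped by their labels. The 6 4C-seq libraries of the series cover chromosome 11 only, where no member lies, and were not used here. The submitters' processing notes name Bowtie2 2.3.4.3, Bowtie 1.0.0, MACS2 2.1.1 and deepTools 3.2.1 and the build GRCm38. The lists hold broad peaks per library, and the caller's settings and the depth are not given in the sources used here. The authors deposited for each peak a score, which followed 10 times the -log10 q-value cut to a whole number. The deposited fold enrichment is a ratio to the background of the caller, and the deposited -log10 p-values and -log10 q-values are those of the same caller.

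Starts were those of the RefSeq promoter table for 17492 of 21900 protein-coding genes and, for 3649 others including *Pmaip1*, the RefSeq gene end with the strand from GENCODE M1 matched by symbol. The other 759 had no start. A peak counted at a start with 1 base or more within 1 kb. Of several start peaks the one with the highest -log10 q gave the rank. Covered bases were counted in the gene body and 20 kb to either side, and a change was called at 1.5 fold. No test was made. The overlap and coverage code was tested on simulated peaks. Intervals of shares are exact binomial 95% intervals from scipy 1.17.1. Other tools were Python 3.11.15, numpy 2.4.6, pandas 2.3.3 and matplotlib 3.10.9.

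Genes named are the 9 members, the genes of the wider list with a start peak in 1 list only or with the 3 highest and 3 lowest ratios among those with at least 1000 covered bases in wt, the 3 genes nearest to the member with the most covered bases, neighbours with a start at a peak of a member window, and cell type markers. Of the genes this rule names, 2 are not reported here. The members and lists were chosen with earlier results of these data known. Alternatives were stricter and equally long peak lists, other start windows, flanks and overlaps, leaving out peaks at starts of other genes, and, chosen after seeing the data, the outermost gene end as the start, genes with at least 1000 covered bases, and other rankings for *Bbc3*.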

Additional observations from a re-analysis of the deposited data

How the results depend on the processing

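With 1 library per genotype, leaving out a replicate does not apply. No paired analysis was possible because each genotype had 1 library and no test was made. The lower coverage of *Bcl2*, the 1 difference past 1.5 fold, kept its sign in 5 of 5 alternatives and stayed past 1.5 fold in 2, at ratios of 0.549 without flanks and 0.619 without peaks at other genes' starts. The latter setting could not change *Bcl2*, because its window held no peak at another gene's start. Of the members short of 1.5 fold, *Bcl2l1* was higher in ΔIkE120 in 1 of 5 alternatives and *Mcl1* and *Bid* in 2 each. All 8 members kept a start peak in both lists with stronger or equally many peaks, other start windows and the stricter overlap. Of these settings, the wider start window could not lose a peak, and equal numbers left the ΔIkE120 list as it was. At the outermost gene end, chosen after seeing the data, 5 had one in wt and 5 in ΔIkE120, and *Bcl2l1*, *Mcl1* and *Bbc3* had none.

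The member windows held 32 wt and 26 ΔIkE120 peaks with the stronger peaks only, 32 and 26 without flanks (0 kb), and 81 and 75 with flanks of 50 kb. The ratio of covered bases over all members was 0.948 with the stronger peaks, 0.950 with equal numbers of peaks, 0.901 without flanks, 0.903 with flanks of 50 kb and 0.914 without peaks at other genes' starts. In the same order, the survival genes gave 1.04, 0.935, 0.840, 0.896 and 0.885. The death genes gave 0.866, 0.968, 1.02, 0.909 and 0.956. The median of all genes was 0.954, 0.965, 0.961, 0.920 and 0.900, and 0.930 over genes with at least 1000 covered bases in wt.

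With equal numbers of peaks and with flanks of 50 kb, 0 members were lower by 1.5 fold. With the stronger peaks, *Bcl2l11* (ratio 0.507) was the 1 member lower by that much in place of *Bcl2*, and *Bid* (1.57) was the 1 member higher. The shares of all genes past 1.5 fold or with a start peak are not given for these alternatives, so the member counts stand without them. The ratios have no error, and the depth behind the lists, which limits which weak peaks were called, is unknown. The cause of these changes was not tested.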
